A study of Canis lupus familiaris with 8 samples.

Results

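The genes described here are 37 genes of the NRF2 antioxidant programme and of the redox machinery around it. They were taken by symbol from a table of 37952 dog genes, and all 37 were present. NRF2, encoded by NFE2L2, is a transcription factor that the adaptor KEAP1 keeps low by directing it to degradation. When oxidants or electrophiles modify KEAP1, NRF2 accumulates, pairs with a small MAF protein and binds antioxidant response elements. The repressor BACH1 competes for the same elements. The targets make glutathione, reduce peroxides, supply NADPH, handle heme and iron, and detoxify quinones, and kidney epithelium is one of the tissues in which the programme is known to act.

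The cells were MDCK GII, a dog kidney epithelial line, grown overnight on collagen-coated silicone membranes in devices of 6 wells. In the stretch group, 4 wells were held at 18% strain, equal in both directions of the plane, for 2 hours before lysis. The control group was 4 wells that the labels list as control, in the same medium with 10% fetal bovine serum and with no named allele or drug in either group. The labels call the wells technical quadruplets divided at random over separate devices, so p-values measure the spread between wells of a single line. The title of the series places the comparison in a study of E-cadherin, EGFR and ERK signalling, and it does not mention oxidative stress.

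Total counts lay between 27047358 and 32478887 per well, and no pair of wells of a group agreed within sampling noise (chi-square per degree of freedom from 5.56 to 26.8). The 6 epithelial markers examined were expressed, with a summed level from 5158 to 5667 CPM (reads of a gene per fixed number of reads in its library) in control wells, against 5352 to 5549 CPM after stretch. Of 7 fibroblast markers, 6 had at most 5 counts in every well, as did 3 of 4 endothelial and 3 of 5 leukocyte markers. COL1A2, COL3A1, DCN, LUM, PTPRC and CD3E had no count in any well. The markers above that level were PDGFRA (53 to 113 counts per well), KDR (21 to 51), CD14 (145 to 215) and CD68 (12 to 32). In control wells the summed level was 1.80 to 4.23 CPM for fibroblast, 1.03 to 1.70 for endothelial and 6.46 to 7.35 for leukocyte markers. Same-numbered wells of both groups shared part of their deviation (correlation across genes from 0.114 to 0.340). Each change is therefore given from a paired fit, in which the replicate number is a block, and where the call differs also from the unpaired fit. The adjusted p-values below are from edgeR's quasi-likelihood test unless another tool is named.

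The 37 genes together took 1.61% of all counts in control wells, unevenly divided. By mean normalised CPM the highest were NQO1 (3435), FTL (2315), FTH1 (1652) and PRDX1 (1536), while HMOX1 had 27.6 and SLC7A11 13.5. To compare genes, levels are given as normalised CPM per kilobase of exon (mean ± SD, n = 4 control wells). The ferritin chains, which store iron, were highest, with 2589 ± 40.3 for the heavy chain FTH1 and 2573 ± 171 for the light chain FTL. These 2 levels did not differ beyond their spread. PRDX1, a peroxiredoxin that reduces hydrogen peroxide, followed at 1666 ± 49.6. NQO1, the quinone reductase that is a classical NRF2 target, stood at 1496 ± 55.4, and TXN, thioredoxin, at 855 ± 23.8. Ferritins and peroxiredoxins have near-identical processed copies in mammalian genomes, and how shared reads were assigned is not stated, so the levels of FTH1, FTL and PRDX1 are uncertain. The strand setting is not stated either, which leaves some doubt over the 9 of 37 genes that share exon bases with a gene on the opposite strand (MAFG, GSS, GSR, PRDX1, PGD, TALDO1, EPHX1, ABCC3 and OSGIN1).

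At the other end, EPHX1, the microsomal epoxide hydrolase, had 0.595 ± 0.266 CPM per kb and only 16 to 83 raw counts per well. OSGIN1, an oxidative stress-induced growth inhibitor, had 3.66 ± 1.62, and MAFF, a small MAF protein, 4.04 ± 0.60. The export pumps ABCC1 and ABCC3 had 4.62 ± 0.293 and 6.16 ± 0.988. MAFK and MAFG, the other small MAF genes, stood at 6.27 ± 0.288 and 6.55 ± 0.547, so MAFK and ABCC3 did not differ beyond their spread. NFE2L2 itself lay in the middle of the order at 49.3 ± 2.08, above KEAP1 at 20.7 ± 1.84 and BACH1 at 12.8 ± 0.923.

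**Figure D1:**
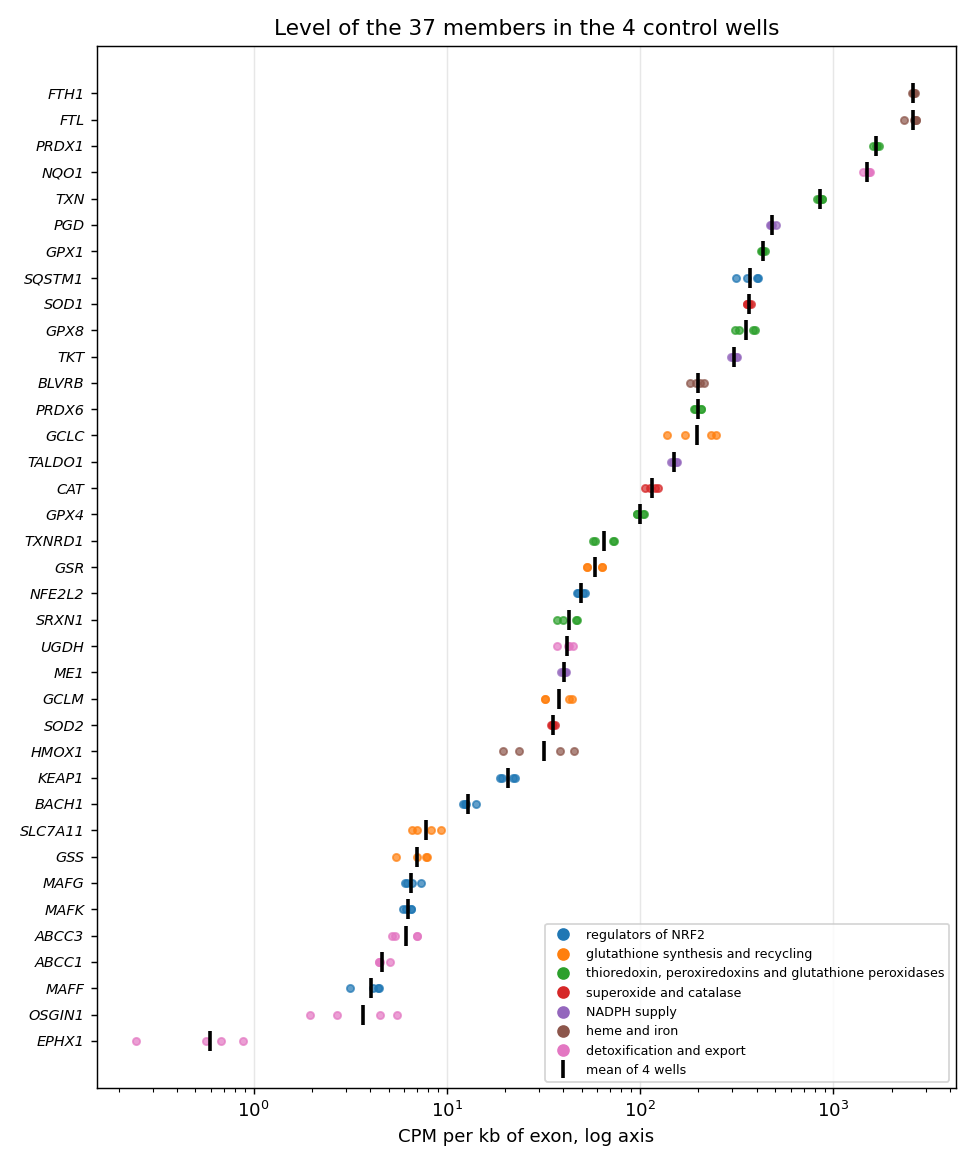
Level of each of the 37 genes in control wells as TMM-normalised CPM per kb of exon (horizontal log axis), ordered by mean. Each dot is 1 of 4 wells, the bar is the mean and colours give the role. Ferritins, PRDX1, NQO1 and TXN are at the top. HMOX1, GCLC and OSGIN1 show wide spreads between wells.

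After 2 hours of strain, a single gene of the 37 was called. SRXN1, sulfiredoxin, rose in the paired fit, with a mean level 1.21-fold that of control wells, and no other member passed there with the filter on low counts. All 37 genes passed the filter on low counts. In the unpaired fit, edgeR called 0 of 37 at an adjusted p under 0.05 (0% of 14571 tested genes) and DESeq2 called 0 (0.275% of all genes), while 3 had an unadjusted p under 0.05 in edgeR (3.97% of all genes). In the paired fit, 1 of 37 passed, against 0.7% of all genes. With no filter on low counts, the paired fit called 7 of 37, against 2.04% of the 21962 genes then tested. These were SRXN1, MAFK, MAFF, TXNRD1 and OSGIN1, which were higher, and GCLC and NQO1, which were lower (edgeR, adjusted p from 1.3e-06 to 0.0465). In messenger RNA from a whole well, fewer cells of a kind and less RNA per cell cannot be told apart.

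The changes were centred on 0. In the paired fit, the median log2 change of the 37 genes was 0.0032, beside -0.0022 for all tested genes. There were 19 genes above 0 and 18 below (48.8% of all genes were above 0), and 26 of 37 lay within 0.1 of 0 on the log2 scale. For 34 of 37 the 95% interval lay inside -0.5 to 0.5. At an unadjusted p under 0.05 in the paired fit there were 8 genes (7 higher, 1 lower), against 8.89% of all genes. The higher ones were SRXN1, TXNRD1, MAFF, MAFK, MAFG, BACH1 and OSGIN1, and the lower one was GCLC. Higher in 4 of 4 same-numbered pairs were 8 of the 37, against 8.45% of all genes. Lower in 4 of 4 pairs were 2, GCLC and GPX1, against 7.84%.

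**Figure D2:**
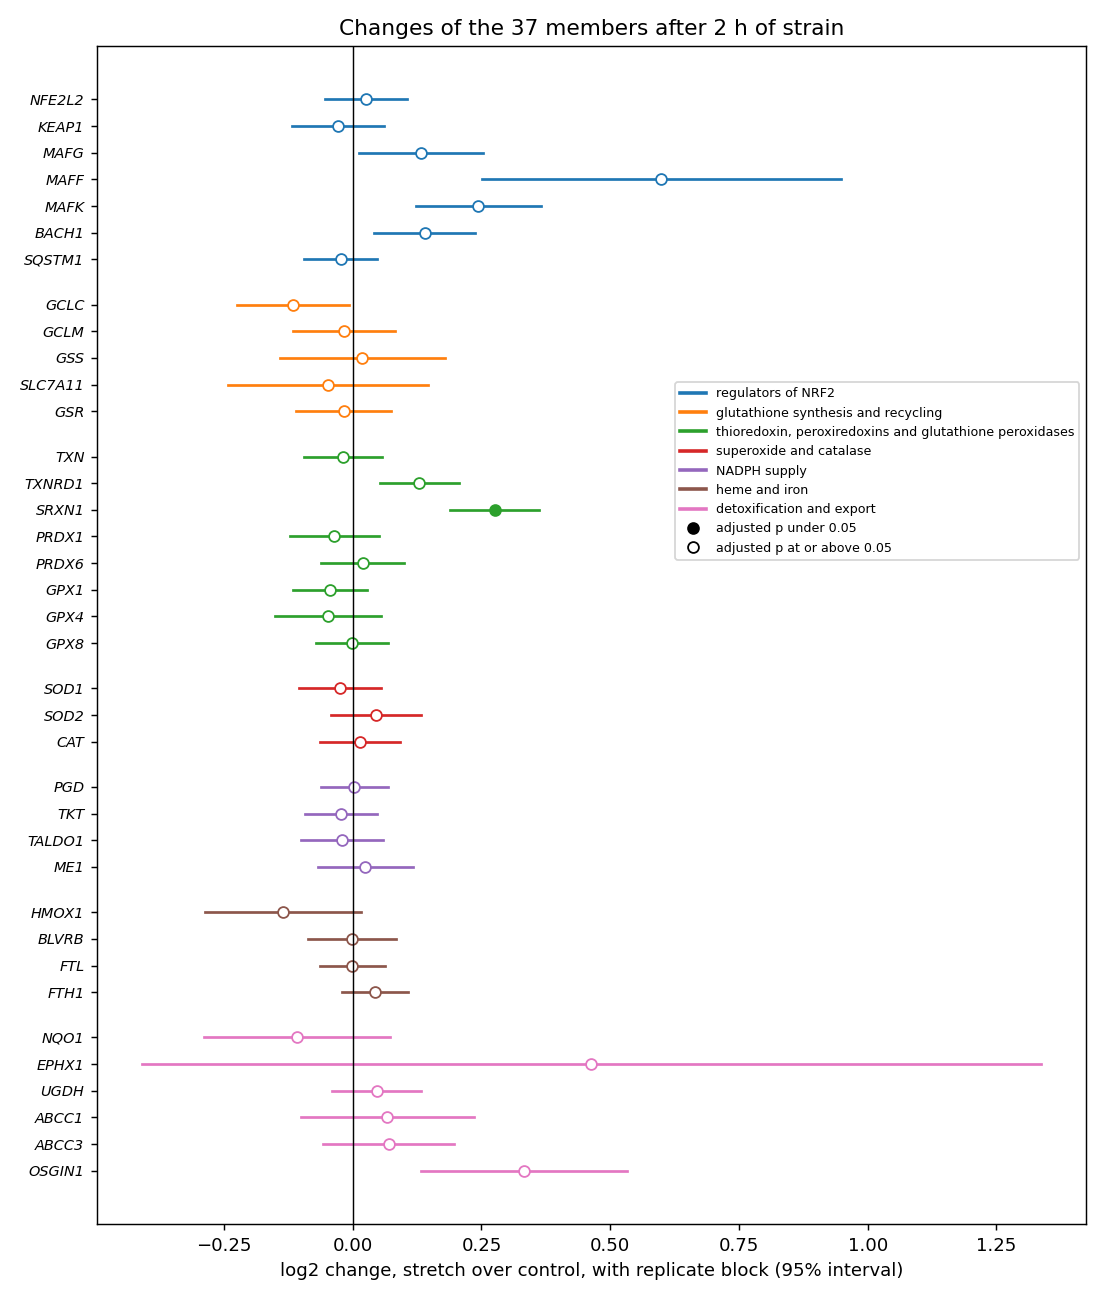
Log2 change of each of the 37 genes, stretch over control, from the paired edgeR fit (points, with 95% intervals as lines), grouped and coloured by role. The filled point is SRXN1, the single gene with an adjusted p under 0.05. Most points lie within 0.1 of 0, and MAFF and EPHX1 have the largest estimates with wide intervals.

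SRXN1 restores peroxiredoxins whose catalytic cysteine has been over-oxidised, and is a target of both NRF2 and AP-1. The gene lies on chromosome 24 (20735939 to 20742311, plus strand), has 2 exons and overlaps no other exon in the table. Control replicates 1 to 4 held 116, 117, 99.0 and 92.2 CPM. After stretch, replicates 1 to 4 held 139, 136, 124 and 112 CPM. The groups overlap, because stretch replicate 4 lies below control replicates 1 and 2, but each stretch well was above the control well of the same number. The log2 change was 0.28 ± 0.041 (SE) in the paired fit, with a 95% interval from 0.19 to 0.36 (edgeR, adjusted p = 0.0023, rank 22 of 14571 genes by p). The unpaired fit gave 0.27 ± 0.088 (edgeR, adjusted p = 0.999). Replicates 1 and 2 taken alone gave a log2 change of 0.24, and replicates 3 and 4 gave 0.31. A block of only 2 levels (replicates 1 and 2, replicates 3 and 4) also called SRXN1 (edgeR, adjusted p = 0.0047), a fit in which 0.398% of all genes passed. When pair 1 was left out SRXN1 missed the threshold (paired edgeR, adjusted p = 0.0556).

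The partners of SRXN1 in peroxide reduction did not pass in the paired fit. TXNRD1, the reductase that returns thioredoxin to its reduced form, lies on chromosome 10 (34960435 to 35077894, minus strand). It held 275, 281, 222 and 218 CPM in control replicates 1 to 4. The stretch wells held 307, 292, 253 and 237 CPM in the same order, each above its control. The 2 groups overlap, and the paired log2 change was 0.13 ± 0.036 (edgeR, adjusted p = 0.148). Thioredoxin itself, TXN, had a log2 change of -0.02 with an interval from -0.09 to 0.06.

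PRDX1 and PRDX6, the peroxiredoxins, had log2 changes of -0.04 and 0.02. The glutathione peroxidases GPX1, GPX4 and GPX8, of which GPX4 repairs lipid peroxides, had -0.04, -0.05 and -0.0012. PRDX1 is the substrate through which SRXN1 is best known, and its levels were 1481 to 1593 CPM in control wells and 1374 to 1574 CPM after stretch. Of the 8 genes in this role, 1 passed in the paired fit, where 0.7% of all genes did.

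Among the regulators, MAFK and MAFF were the ones whose groups of wells came apart without a call. MAFK, on chromosome 6 (15564445 to 15576148, minus strand), held 46.2, 48.3, 50.8 and 50.8 CPM in control replicates 1 to 4. In stretch replicates 1 to 4 it held 56.1, 65.8, 54.3 and 56.3 CPM, so every stretch well was above every control well. The paired log2 change of 0.24 ± 0.057 missed the threshold (edgeR, adjusted p = 0.0674), as did the unpaired value of 0.25 ± 0.068 (edgeR, adjusted p = 0.755). Replicates 1 and 2 alone gave 0.37, which passed there (edgeR, adjusted p = 0.0449), and replicates 3 and 4 alone gave 0.13. With pair 3 left out the paired value of 0.29 also passed (edgeR, adjusted p = 0.00655).

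MAFF, on chromosome 10 (27477234 to 27486527, minus strand), was rare, with 58 to 96 raw counts per control well and 108 to 147 per stretch well. It held 2.13, 2.98, 2.78 and 2.99 CPM in control replicates 1 to 4. With strain, replicates 1 to 4 held 4.09, 5.43, 3.70 and 3.41 CPM, again all above the controls. The paired log2 change of 0.60 ± 0.17 was the largest estimate of the 37 and missed the threshold (edgeR, adjusted p = 0.137). Replicates 1 and 2 alone gave 0.89, and replicates 3 and 4 alone gave 0.31. MAFF and MAFK were the 2 of 37 genes for which all stretch wells exceeded all control wells, against 1.3% of all genes, and none of the 37 had every stretch well below, against 1.24%.

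MAFG, the third small MAF gene (chromosome 9, 1191956 to 1200828), went from 50.3 ± 4.20 to 55.1 ± 3.94 CPM (n = 4). Control replicates 1 to 4 held 46.8, 47.8, 56.2 and 50.4 CPM, and stretch replicates 1 to 4 held 50.5, 60.1, 54.7 and 55.3 CPM. The groups overlap, 3 of 4 pairs were higher, and the paired log2 change was 0.13 ± 0.057 (edgeR, adjusted p = 0.487). Without pair 2 it was 0.07, and replicates 1 and 2 alone gave 0.22 against 0.05 for replicates 3 and 4. On the opposite strand another gene overlaps 15.3% of its exon bases, so its value is uncertain. BACH1, the repressor (chromosome 31, 24807496 to 24849474), held 74.6, 75.5, 85.3 and 73.0 CPM in control replicates 1 to 4. The stretch wells held 76.2, 85.0, 94.0 and 84.7 CPM. All 4 pairs were higher while the groups overlap, and the paired log2 change was 0.14 ± 0.046 (edgeR, adjusted p = 0.265).

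NFE2L2, the gene of NRF2, held 136 to 149 CPM in control wells and 136 to 152 CPM after stretch. Its log2 change was 0.03 with an interval from -0.05 to 0.11. NRF2 is set mainly by protein stability, which these counts do not read. KEAP1 had a log2 change of -0.03, and SQSTM1, the autophagy receptor p62 that can sequester KEAP1, had -0.02 with an interval from -0.09 to 0.05. Of the 7 regulators, 0 passed in the paired edgeR fit, and 4 had an unadjusted p under 0.05 there (8.89% of all genes did). A paired DESeq2 fit called MAFK (adjusted p = 0.0487) and SRXN1 among the 37 (0.995% of all genes).

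**Figure D3:**
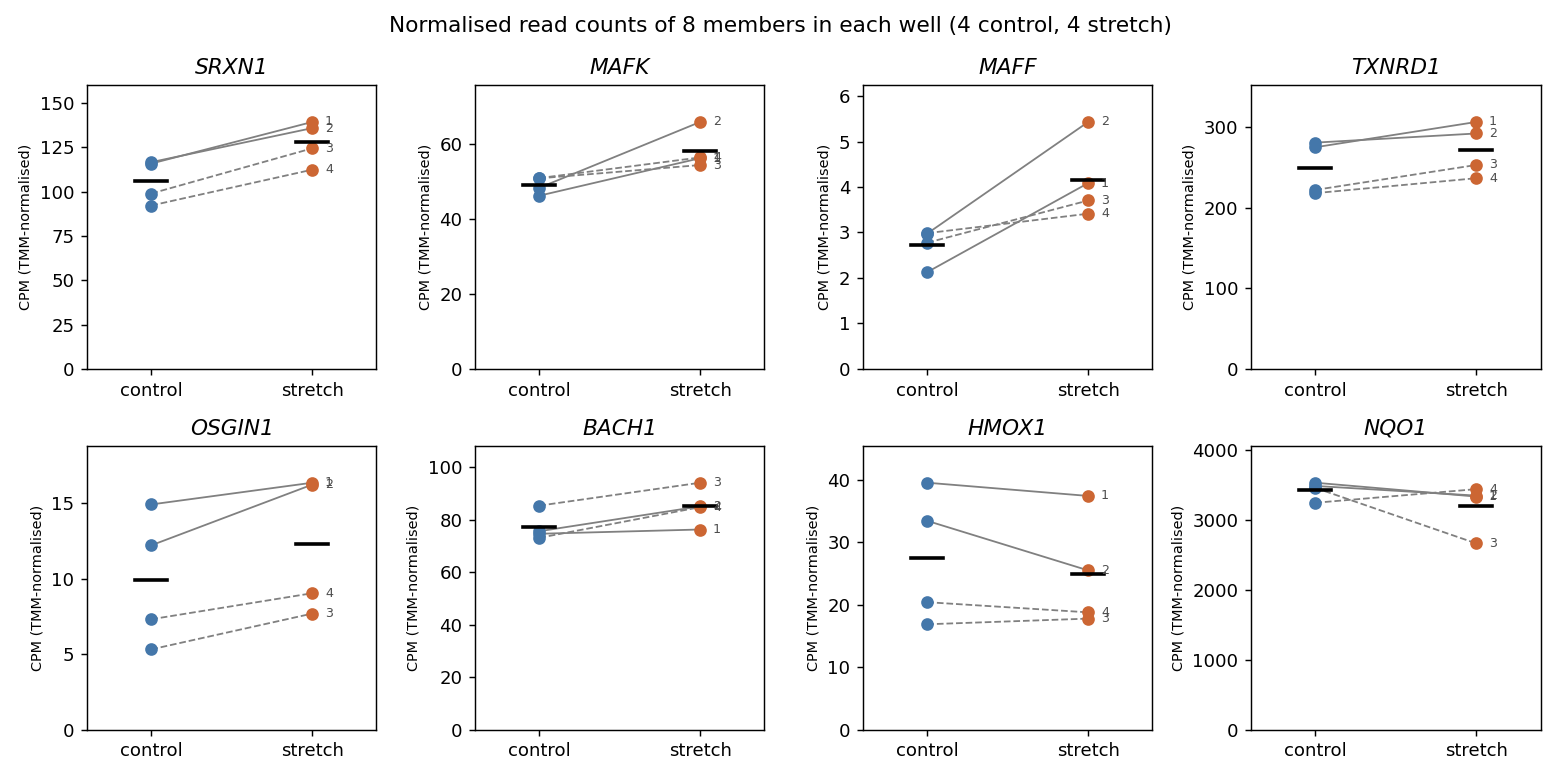
TMM-normalised CPM of 8 genes in each control well (blue) and stretch well (orange), on linear axes from 0. Black bars are means of 4 wells, lines join wells with the same replicate number (solid for 1 and 2, dashed for 3 and 4). SRXN1, MAFK, MAFF, TXNRD1, OSGIN1 and BACH1 were higher in 4 of 4 pairs. HMOX1 and OSGIN1 differ more between replicate numbers than between groups.

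No gene of glutathione synthesis passed in the paired fit, and the estimates lay at or below 0.02 on the log2 scale. GCLC, the catalytic subunit of the rate-limiting ligase (chromosome 12, 21243198 to 21292135), held 770, 823, 458 and 566 CPM in control replicates 1 to 4. It held 738, 648, 448 and 558 CPM in stretch replicates 1 to 4, lower in each pair, though the groups overlap widely. At -0.12 ± 0.050, its paired log2 change missed the threshold (edgeR, adjusted p = 0.519). Pair 2 carried most of it, with a log2 difference of -0.35 against -0.06, -0.03 and -0.02 in pairs 1, 3 and 4, and without pair 2 the paired value was -0.04. The modifier subunit GCLM went from 190 ± 33.5 to 187 ± 20.5 CPM (n = 4), or -0.02 on the log2 scale in the paired fit. The count ratio of GCLM to GCLC was 0.297 ± 0.038 in control wells and 0.318 ± 0.039 in stretch wells, higher in 4 of 4 pairs. The log2 difference of 0.10 was smaller than the spread between wells when pairs were disregarded (two-sided exact permutation p = 0.343; the smallest possible is 0.0286). Within pairs it ran from 0.0025 to 0.16 (two-sided exact sign-flip permutation p = 0.125, the smallest that 4 pairs can give).

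GSS, glutathione synthetase, had a log2 change of 0.02 and GSR, glutathione reductase, -0.02. SLC7A11, the cystine importer that feeds glutathione synthesis, held 11.3 to 16.2 CPM in control wells and 12.2 to 14.2 CPM after stretch. Its log2 change was -0.05 with an interval from -0.24 to 0.15. Of these 5 genes, 0 passed in the paired edgeR fit (0.7% of all genes did). There 1 had an unadjusted p under 0.05, against 8.89% of all genes. In DESeq2 0 passed (0.275% of all genes unpaired, 0.995% paired).

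HMOX1, heme oxygenase, is among the most inducible NRF2 targets and is repressed by BACH1. The gene is on chromosome 10 (29745379 to 29752300, minus strand). Control replicates 1 to 4 held 39.6, 33.5, 16.9 and 20.4 CPM. The strained wells held 37.5, 25.5, 17.8 and 18.8 CPM in that order, so 3 of 4 pairs were lower and the groups overlap. The paired log2 change was -0.14 ± 0.072 with an interval from -0.29 to 0.02 (edgeR, adjusted p = 0.656). Without pair 2 it was -0.04. In the unpaired fit the interval ran from -0.98 to 0.68.

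BLVRB, a biliverdin reductase downstream of heme oxygenase, had a log2 change of -0.0015. FTH1 went from 1652 ± 25.7 to 1702 ± 34.6 CPM (n = 4), higher in 4 of 4 pairs and by 0.04 on the log2 scale (paired edgeR fit, adjusted p = 0.79). FTL was level, at 2315 ± 154 and 2315 ± 159 CPM. The count ratio of FTH1 to FTL was 0.716 ± 0.057 in control and 0.738 ± 0.057 in stretch wells, a difference within the spread when pairs were disregarded (two-sided exact permutation p = 0.514). It was higher in 4 of 4 pairs, by 0.02 to 0.06 on the log2 scale with a mean of 0.04, and the sign-flip test within pairs gave its smallest possible value (two-sided exact permutation p = 0.125).

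No detoxification gene passed in the paired fit, and the most abundant of them and one of the rarest had values of opposite sign. NQO1, on chromosome 5 (80560166 to 80571660, plus strand), held 3537, 3491, 3463 and 3250 CPM in control replicates 1 to 4. In stretch replicates 1 to 4 it held 3339, 3353, 2668 and 3445 CPM. It was lower in 3 of 4 pairs, stretch replicate 3 stood well below the rest, and the paired log2 change was -0.11 ± 0.073 (edgeR, adjusted p = 0.80). With pair 3 left out the paired value was -0.02. With all pairs but no filter on low counts, the value of -0.11 passed (paired edgeR fit, adjusted p = 0.0012), so the call depends on the filter.

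OSGIN1, also on chromosome 5 (68842573 to 68876492, minus strand), held 14.9, 12.2, 5.31 and 7.31 CPM in control replicates 1 to 4. The corresponding stretch wells held 16.3, 16.2, 7.68 and 9.03 CPM. Each pair was higher, while the groups overlap, and replicates 1 and 2 lie above replicates 3 and 4 in both groups. Pairing gave a log2 change of 0.33 ± 0.095 (edgeR, adjusted p = 0.156), and 22.8% of its exon bases overlap 2 genes on the opposite strand. UGDH, which makes the sugar donor for glucuronidation, and the pumps ABCC1 and ABCC3 had log2 changes of 0.05, 0.07 and 0.07. EPHX1 had 0.46, with an interval from -0.41 to 1.34, and that value came from pair 3 alone (16 counts in the control and 83 in the stretch well). The other 3 pairs were lower, and without pair 3 the paired value was -0.09. Of these 6 genes, 0 passed in the paired edgeR fit (0.7% of all genes did). There 1 had an unadjusted p under 0.05, against 8.89% of all genes. In DESeq2 0 passed (0.275% of all genes unpaired, 0.995% paired).

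The enzymes of superoxide removal and of NADPH supply had estimates within 0.05 of 0. SOD1 and SOD2, the cytosolic and mitochondrial superoxide dismutases, had log2 changes of -0.02 and 0.05, and CAT, catalase, 0.01. PGD, TKT and TALDO1 of the pentose phosphate pathway had 0.0032, -0.02 and -0.02, and ME1, malic enzyme, 0.02. For all 7 of these genes the 95% interval stayed inside -0.5 to 0.5, and none had an unadjusted p under 0.05 in the paired or the unpaired edgeR fit. PGD, for example, held 923 to 988 CPM in control wells and 922 to 974 CPM after stretch.

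Several NRF2 targets differed more between replicate numbers than between groups. Replicates 1 and 2 were compared with replicates 3 and 4 within each group, as a description with no test. This division was known from earlier results of these data, and the labels do not say what equal numbers share. In control wells the log2 difference was 1.10 for OSGIN1, 0.97 for HMOX1, 0.64 for GCLC, 0.44 for GCLM, 0.38 for SLC7A11 and 0.34 for both TXNRD1 and GSS. In stretch wells it was 0.96, 0.75, 0.47, 0.23, 0.098, 0.29 and 0.42 for the same genes, so the direction recurred in wells that share no sample with the first. With both groups pooled, every well of replicates 1 and 2 stood above every well of replicates 3 and 4 for 14 of 37 genes. This held for 9.93% of all genes. Every such well stood below for 1, ABCC3, against 10.4% of all genes.

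The 14 genes were NFE2L2, KEAP1, SQSTM1, GCLC, GCLM, GSS, GSR, TXN, TXNRD1, GPX8, HMOX1, BLVRB, FTL and OSGIN1. SRXN1 showed the same direction, with 0.28 in control and 0.22 in stretch wells. It separated completely within each group, but not with both groups pooled. For the superoxide and NADPH genes the values in control wells ran from -0.07 to 0.04. The standard errors of the strain effect for OSGIN1, HMOX1 and GCLC were 0.38, 0.35 and 0.23 in the unpaired fit and 0.095, 0.072 and 0.050 in the paired fit.

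**Figure D4:**
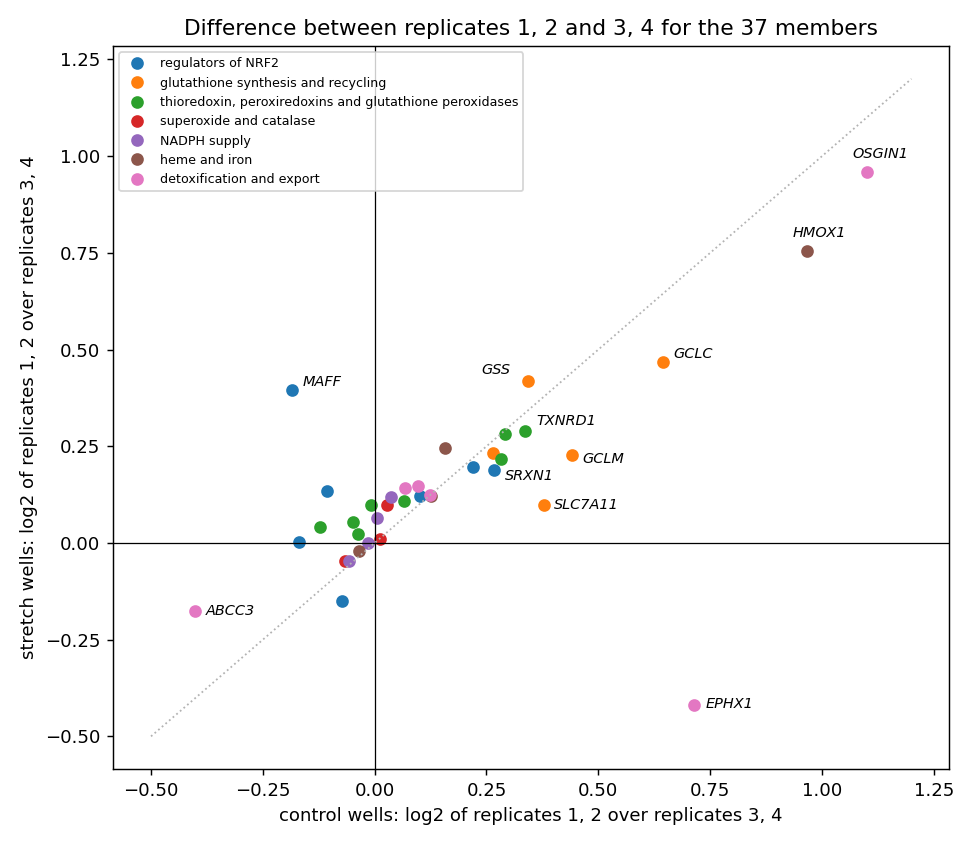
Mean log2 CPM (0.1 added before the logarithm) of replicates 1 and 2 minus that of replicates 3 and 4, for the 37 genes coloured by role. Control wells are on the horizontal axis and stretch wells on the vertical axis. The dotted line marks equal values. OSGIN1, HMOX1 and GCLC lie far to the upper right, and MAFF and EPHX1 are among the genes whose values have opposite signs in the 2 groups.

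Other genes of the pathway were read from a list of 81. The table held 78 of them and 70 were tested. The paired edgeR fit called 2 of 70, both higher (0.7% of all genes passed there in either direction). The unpaired edgeR fit called 0 (0% of all genes), and 3 had an unadjusted p under 0.05 there, against 3.97% of all genes. Unpaired DESeq2 called 1, against 0.275% of all genes. The median paired log2 change of the 70 was -0.02, with 21 above 0 and 49 below, where 48.8% of all genes were above 0. CHAC1, which degrades glutathione and is a target of the ATF4 stress pathway, lies on chromosome 30 (8370410 to 8372770). Control replicates 1 to 4 held 5.58, 5.50, 5.04 and 4.85 CPM, and the stretch wells held 6.83, 7.54, 8.95 and 7.38 CPM. Every stretch well was above every control well, and the paired log2 change was 0.55 ± 0.12 (edgeR, adjusted p = 0.0451 paired and 0.409 unpaired). CHAC1 had 149 to 261 raw counts per well, and it did not pass in the paired fit without pair 2 or without pair 4.

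SYVN1, an endoplasmic reticulum ubiquitin ligase that can target NRF2, is on chromosome 18 (52566393 to 52574578). It held 116, 104, 96.0 and 93.4 CPM in control and 126, 144, 134 and 105 CPM in stretch replicates 1 to 4. The groups overlap, each pair was higher, and the paired log2 change was 0.31 ± 0.061 (edgeR, adjusted p = 0.0432 paired and 0.953 unpaired). The block of 2 levels gave an adjusted p of 0.0914 in edgeR, and 23.1% of its exon bases overlap 2 genes on the opposite strand. Like CHAC1, SYVN1 did not pass in the paired fit without pair 2 or without pair 4.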

How the data were processed

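The authors deposited raw exon counts for each gene, produced by featureCounts per the file title and the labels. The submitters' processing notes also name Trim Galore 0.6.5 and STAR 2.7.3a, with no role stated. The genome build, strand setting and treatment of shared reads are not given in the sources used here. Start and end of all 37 genes equal those of the RefSeq dog assembly UU_Cfam_GSD_1.0, from which chromosomes were read. FTH1 has no chromosome there. Exon lengths came from the deposited table.

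Counts were tested in R 4.3.3 with edgeR 4.0.16 (quasi-likelihood test, robust, TMM factors, filterByExpr with a minimum count of 10 and a minimum total of 15). Tests were two-sided, with Benjamini-Hochberg adjustment over 14571 genes and a threshold of 0.05. The main model had no block (unpaired fit), and the paired fit added the replicate number of the titles as a block. Every same-numbered pair had correlated deviations from the group means (mean 0.207), and the numbers were taken as pairing the wells. Pairs of different number were not compared, so this remains an assumption on which calls in the paired fit rest. Standard errors are Wald errors from the same fits. DESeq2 1.42.0 was an alternative, with 2 other scalings, no filter, a block of 2 levels and omission of wells, and the same choices with the block, and a sign-flip test of both ratios within pairs, were added after seeing the data. Scripts were tested on simulated data. Figures used matplotlib 3.10.9.

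The 37 genes, the lists and the tests were chosen with earlier results of these data known. The naming rule gave full values for genes past the threshold, genes without overlap, the 6 with the smallest p in either fit, the 5 highest and 5 lowest levels and both fixed ratios. Values for HMOX1 and the differences between replicate numbers were added after they were seen.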

Additional observations from a re-analysis of the deposited data

Results flagged for a closer look

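In 3 of the 74 groups of 4 wells examined (37 genes in 2 groups), 1 well lay far from the other 3 by the ratio of the gap to the whole range (above 0.829). Chance flags about 1 in 20 groups, which is 3.7 here. For NQO1, stretch replicate 3 had 2668 CPM while the other stretch wells had 3339 to 3445. For SOD2, stretch replicate 1 had 153 CPM against 133 to 135. For ABCC1, control replicate 2 had 23.4 CPM against 20.6 to 20.9.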

How the results depend on the processing

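Depth was lowest for EPHX1, and MAFF was next. Without the block, all 14571 genes gave 0 calls in edgeR, and 0 with either other scaling, 40 in DESeq2, 11 with no filter, 51 within replicates 1 and 2, 25 within replicates 3 and 4 and 0 to 12 when 1 well was left out. Calls among the 37 were 0 in each of these, except 1 (MAFK) within replicates 1 and 2, and calls among other pathway genes were 0, except 1 in DESeq2. With the replicate block there were 102 calls among all genes, 1 among the 37 and 2 among other pathway genes. With the block of 2 levels these were 58, 1 and 1. With the replicate block and DESeq2 they were 145, 2 and 1, with DESeq2 size factors 105, 1 and 2, with library size only 111, 2 and 1, and with no filter 448, 7 and 4. The 6 members that passed beside SRXN1 with the block and no filter were MAFK, MAFF, TXNRD1, OSGIN1, GCLC and NQO1, and of these only MAFK passed in any other of the 9 fits with the block. Leaving out pair 1, 2, 3 or 4 with the block gave 43, 67, 186 and 74 calls among all genes, 0 to 2 among the 37 and 0 to 1 among other pathway genes.

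SRXN1 passed in 8 of 9 fits with the replicate block, the exception being that without pair 1, and in 0 of 14 alternatives without one. Its log2 change ran from 0.21 to 0.33 over 24 alternatives. MAFK passed in 4 of the 9. Of 888 values of the 37 genes under alternatives, 92 had another sign than the main value, in 24 genes, and none of these was past the threshold. Neither ratio passed under any alternative, though 4 pairs cannot give a p under 0.125 within pairs. The cause of these differences was not tested.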

Other observations

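Genes in this paragraph were chosen after their values were seen. TRIM21, a ubiquitin ligase that acts on SQSTM1, was the one other pathway gene with every stretch well below every control well, from 11.1 ± 0.875 to 8.94 ± 0.142 CPM (n = 4). The paired log2 change was -0.31 ± 0.094 (edgeR, adjusted p = 0.197). TXNIP, the inhibitor of thioredoxin that follows glucose supply, held 900, 888, 567 and 654 CPM in control replicates 1 to 4. Stretch replicates 1 to 4 held 815, 622, 567 and 515 CPM. The paired log2 change was -0.25 ± 0.091 (edgeR, adjusted p = 0.526). ABCC2, an export pump for glutathione conjugates, was higher in 4 of 4 pairs by 0.35 ± 0.11 on the log2 scale (paired edgeR fit, adjusted p = 0.391).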
